A study of Mus musculus with 25 samples.

Results

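The cytosolic ribosomal proteins are the protein subunits of the ribosome that translates messages outside mitochondria. Members were the genes of the deposited count table whose symbol is Rps or Rpl followed by a number, with or without the letter a, x or y, together with Rpsa, Rplp0, Rplp1 and Rplp2. This choice left out pseudogenes and the Rps6k kinases, and gave 76 genes of 17007, of which 30 encode proteins of the small (40S) subunit and 46 proteins of the large (60S) subunit. No measured value entered the choice.

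The study sequenced polyA RNA from the duodenum of male mice, 8 weeks old at the start and fed for 8 weeks. Wild-type mice were C57BL/6N, and the other genotype is given as Aldh2KI, a knock-in at the gene of mitochondrial aldehyde dehydrogenase, the enzyme that oxidizes acetaldehyde made from ethanol. WT_Con (4 libraries) and KI_Con (4 libraries) were wild-type and Aldh2KI mice on control diet. WT_Half (7 libraries) and KI_Half (6 libraries) received a 2.5% ethanol diet with gavage of 2 g/kg ethanol 2 times a week. WT_Full (4 libraries, wild type only) received a 5% ethanol diet with gavage of 4 g/kg 2 times a week. Mice were killed 9 h after a last ethanol gavage of 5 g/kg, and the labels do not say whether the control mice were gavaged. Nothing beyond the library names says that the libraries of a group came from separate mice, so p-values measure the spread between these libraries. The comparisons share control and ethanol libraries with one another and are not independent.

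A ribosome joins a small subunit, which reads the message, to a large subunit, which makes the peptide bond. In mammals the messages of ribosomal proteins begin with a short run of pyrimidines (C or T in the DNA) called the 5′ terminal oligopyrimidine (TOP) motif, through which the kinase mTORC1 and the protein LARP1 control their translation and stability. The duodenal lining is renewed throughout life from dividing crypt cells, which make many ribosomes, while the absorptive cells of the villus are no longer dividing.

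The bases around the annotated transcript start are printed here for 6 members whose longest pyrimidine run lies on it, because this run is the sequence feature that ribosomal protein messages are known for. Each line gives 30 bases that hold the start, 5′ to 3′ on the gene's strand, with the longest pyrimidine run in capitals. Sequences are from RefSeq, build GRCm38.p6.
Rpl14, chr9:120571501-120571530, plus strand: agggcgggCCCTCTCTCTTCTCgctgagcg
Rps6, chr4:86857349-86857378, minus strand: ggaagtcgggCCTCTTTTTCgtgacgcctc
Rpl7a, chr2:26910788-26910817, plus strand: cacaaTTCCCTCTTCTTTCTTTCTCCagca
Rpl27a, chr7:109519186-109519215, plus strand: gtgagCTCCTCCCTTTTCCCTTTCTgccac
Rpl38, chr11:114668568-114668597, plus strand: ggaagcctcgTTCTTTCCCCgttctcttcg
Rplp2, chr7:141447636-141447665, plus strand: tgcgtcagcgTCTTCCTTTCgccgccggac
Taking the annotated start as position 0, the runs begin at position -8 in Rpl14, -1 in Rps6, -14 in Rpl7a, -4 in Rpl27a, -2 in Rpl38 and -5 in Rplp2. Rpl7a has the longest run of the members matched, at 21 bases. These members were picked after their sequences were seen, and in others the longest run lies off the annotated start, as in Rps2 (position 40) and Rps16 (position -47).

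A start window of 300 bases, 250 before the annotated start and 50 after it, was matched for 56 of the 76 members. A run of at least 5 pyrimidines held the annotated start itself in 20 of these (35.7%) and in 11.8% of all 27025 genes with a window. In 48 members (85.7%) there was a pyrimidine run of at least 8 bases within 50 bases of the start, against 39.3% of all genes, a run that reached beyond this stretch being counted only within it. Runs of at least 12 bases occurred in 23 of 56 members (41.1%) and in 10.6% of all genes. The letters CTTTCC lay on the sense strand within 50 bases of the start in 18 members (32.1%) and 5.43% of all genes. Searched on both strands over the whole window, CGGAAG, the core of an ETS-family site, was found in 39 members (69.6%) against 18.8% of all genes, CTTTCC in 29 (51.8%) against 29.3%, and AAGATGG, the core of a YY1 site, in 9 (16.1%) against 7.28%. The sense-strand CTTTCC matches are counted again in the search over both strands, and a match is a description of the letters, not of a bound factor.

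Libraries held 24.6 to 44.8 M counts, with a median of 32.0 M. By group the ranges were 29.5 to 44.8 M in WT_Con, 27.3 to 32.7 in KI_Con, 30.2 to 41.0 in WT_Half, 27.6 to 34.6 in KI_Half and 24.6 to 33.2 in WT_Full. Levels below are in CPM, the counts of a gene in each M counts of its library after normalization by the trimmed mean of M-values, a scaling that assumes most genes do not change. The tissue label was checked on marker genes: villus enterocyte genes summed to 16433 to 48016 CPM over all libraries, Brunner gland genes, which mark the upper duodenum, to 15.3 to 53685 CPM, and Slc10a2, the 1 ileal marker of 3 listed that the table held, to 0.511 to 2.68 CPM. Brunner gland genes had means of 24394 ± 23943 CPM in WT_Con (SD, n = 4), 4127 ± 7079 in WT_Half (SD, n = 7) and 1815 ± 3561 in WT_Full (SD, n = 4). The means were 3064 ± 5254 CPM in KI_Con (SD, n = 4) and 1720 ± 2822 in KI_Half (SD, n = 6). Pancreatic acinar genes summed to 5018 CPM in KI_Con replicate 1 and 1749 in replicate 2, against 23.8 and 21.8 in replicates 3 and 4. In WT_Con they summed to 2472, 15.8, 1809 and 233 CPM in replicates 1 to 4. The WT_Con libraries were left out only 1 at a time. In the ethanol groups the acinar genes lay at 12.4 to 86.4 CPM. In whole tissue, fewer cells of a type and less RNA per cell cannot be told apart.

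Ribosomal protein messages took 1.79 to 4.05% of all counts of a library. The 4 WT_Con libraries gave 1.92, 2.01, 2.30 and 2.40%, and the 4 KI_Con libraries 2.11, 1.79, 2.30 and 1.89%. The 6 KI_Half libraries ran from 2.86 to 3.43% with a median of 2.98%, so that every one lay above all 8 control libraries. The 7 WT_Half libraries ran from 2.01 to 4.05% with a median of 2.38%, and the WT_Full libraries gave 3.84, 3.41, 3.48 and 1.79%. WT_Half therefore overlapped its controls, apart from replicates 1 (4.05%), 5 (2.50%) and 7 (3.06%), which lay above them. In WT_Full, 3 libraries lay above every control and the fourth, replicate 4, lay below every WT_Con library. Group means were 2.16 ± 0.229% in WT_Con (SD, n = 4), 2.02 ± 0.230% in KI_Con (SD, n = 4), 2.63 ± 0.709% in WT_Half (SD, n = 7), 3.04 ± 0.208% in KI_Half (SD, n = 6) and 3.13 ± 0.913% in WT_Full (SD, n = 4). The spread within KI_Half was thus as narrow as in the controls, and that within WT_Half and WT_Full was wider.

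**Figure D1:**
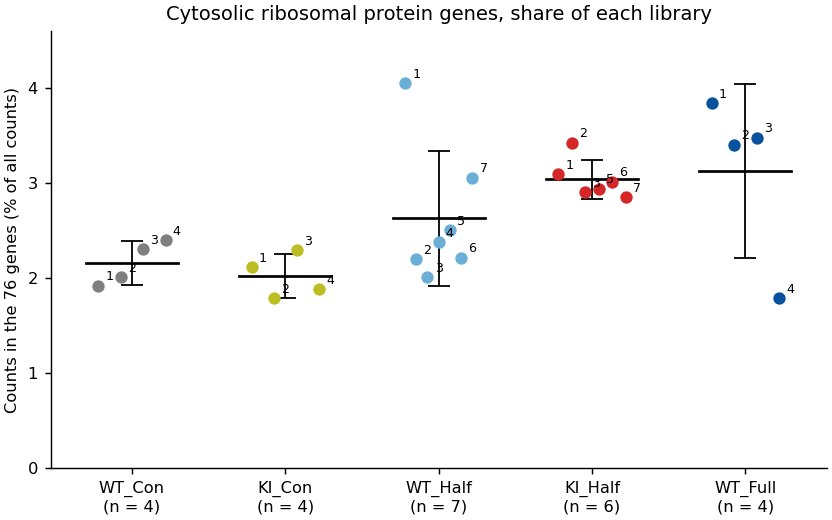
Percent of each library's counts that fell on the 76 ribosomal protein genes, with 1 numbered point per library (the replicate number) and the mean ± SD of each group. All 6 KI_Half libraries lie between 2.86 and 3.43%, above the 8 control libraries, while WT_Full replicate 4 (1.79%) lies far below the other 3 WT_Full libraries.

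The balance between the subunits was close to constant. Counts on large subunit genes were 1.42 ± 0.0211 times those on small subunit genes in WT_Con (SD, n = 4), 1.41 ± 0.0207 in KI_Con (SD, n = 4), 1.38 ± 0.0351 in WT_Half (SD, n = 7), 1.38 ± 0.0200 in KI_Half (SD, n = 6) and 1.40 ± 0.0159 in WT_Full (SD, n = 4). The groups' means thus lay close to one another while the shares themselves differed.

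Members differed widely in level. Transcript lengths here and below are those of 1 annotated transcript chosen per gene. Per kilobase of transcript, the scale on which genes can be compared, the highest were Rplp1, a protein of the stalk that recruits elongation factors (1460 CPM per kb over 25 libraries), Rps14 (1338) and Rpl41 (1299), the smallest ribosomal protein. The lowest were Rpl24 (1.39 CPM per kb), Rps10 (12.6) and Rpl13a (13.2). These 3 low values are uncertain: on the same strand, 71.5% of the exon bases of Rpl24, 91.6% of those of Rps10 and 59.3% of those of Rpl13a are also annotated to an overlapping gene, and the sources used here do not say how reads shared by 2 genes were counted. Many members also have near-identical processed pseudogenes, with which they can share reads.

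Over the 25 libraries the members moved together. Within groups, each member's log2 CPM was correlated with the mean of the other members. The median Pearson r was 0.904 over 25 libraries, with 0.449 for Rpl24 as the lowest. This is a description, since all members share each library's composition and scaling. Around the mean of all members, the SD of log2 CPM was small for Rpl23 (0.046) and Rpl27a (0.066), and largest for Rpl24 (0.434), Rps29 (0.381) and Rps10 (0.356), with a median of 0.129. Rps10 and Rpl24 are the low, overlapping genes named above, whereas Rps29, a small zinc-binding protein of the 40S head, was well measured.

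Outside the set, the genes most like the mean of the members, by Pearson r of log2 CPM centred on group means over 25 libraries, were Rpl34-ps1 (0.959), Gm9794 (0.958), Magoh (0.950), Eef1d (0.945), Mif (0.942), Cfdp1 (0.933), Mrpl57 (0.930), Naca (0.929), Snrpg (0.925) and Nhp2 (0.924). Rpl34-ps1 is a ribosomal protein pseudogene whose reads may belong to Rpl34, Eef1d a subunit of an elongation factor complex, Naca a chaperone subunit at the ribosome's exit tunnel, and Nhp2 a protein of box H/ACA particles that modify ribosomal RNA.

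In Aldh2KI mice, nearly the whole set was higher at the lower ethanol dose than on control diet. Across the set the median change was 1.39-fold. By edgeR's quasi-likelihood test with Benjamini-Hochberg adjustment over 16944 genes, 68 of 76 members were higher in KI_Half than in KI_Con and 0 were lower, where 20.0% of all genes tested were higher. All 76 fold changes were positive, from 0.20 to 1.12 on the log2 scale, with a median of 0.48 against 0.00 over all genes. Small subunit genes passed in 26 of 30 cases (median log2 change 0.50) and large subunit genes in 42 of 46 (median 0.47). Without overlap between the 2 groups' libraries, 59 of 76 members were higher, against 13.5% of all genes. The count fell to 48 (all genes 16.1%) when 1 fit of all 25 libraries shared the spread, and to 33 (all genes 8.56%) when the 2 KI_Con libraries with pancreatic transcripts were left out, while the median of the members was 0.47 in both.

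The smallest p among members was that of Rpl14, a large subunit protein (ENSMUSG00000025794, chromosome 9, 120571444 to 120574654). It measured 244.3, 210.8, 256.5 and 212.3 CPM in the 4 KI_Con libraries, and from 329.4 to 415 CPM with a median of 369.4 in KI_Half, so the groups did not overlap. Its mean rose from 231 ± 23 (SD, n = 4) to 369 ± 27.7 CPM (SD, n = 6), a log2 change of 0.68 ± 0.10 (SE, adjusted p = 0.000638). Rps16 (ENSMUSG00000037563, chromosome 7), a small subunit protein near the decoding site, measured 337.6, 269.6, 322.9 and 283.3 CPM in KI_Con and 441.9 to 520 CPM in KI_Half, with a median of 469.8. It rose by 0.65 ± 0.09 on the log2 scale (adjusted p = 0.000745), again without overlap. Rps19 (ENSMUSG00000040952, chromosome 7), the gene mutated most often in Diamond-Blackfan anaemia, measured 201.8, 157.7, 188.9 and 167.4 CPM in KI_Con and 259.4 to 319.6 in KI_Half, with a median of 279. Its log2 rise of 0.67 ± 0.10 (adjusted p = 0.000822) was of the same size as that of Rpl14. Rps2 (ENSMUSG00000044533, chromosome 17), the member with the highest mean CPM (1116 over 25 libraries), stands at the entry of the message channel. It measured 840.2, 731.8, 918.8 and 707.2 CPM in KI_Con and 1156 to 1448 CPM in KI_Half with a median of 1295, a rise of 0.72 ± 0.11 (adjusted p = 0.000848).

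Rps27a (ENSMUSG00000020460, chromosome 11), made as a fusion with ubiquitin, measured 181.8, 143.8, 176 and 161 CPM in KI_Con and 235.1 to 296.3 in KI_Half, with a median of 259.7. It rose by 0.67 ± 0.10 on the log2 scale (adjusted p = 0.000893), and its groups did not overlap. Among the members with the highest fold changes was Rpl27 of the large subunit (0.71 ± 0.12, adjusted p = 0.00167), at 316.3, 239.1, 284.1 and 249 CPM in KI_Con and 359.3 to 525.6 CPM in KI_Half, with a median of 448. The highest fold change, that of Rpl24, was 1.12 ± 0.34 (adjusted p = 0.0244) and rests on 0.308, 0.690, 0.655 and 0.592 CPM in KI_Con and 0.873 to 2.06 CPM in KI_Half. Rpl24 is the overlapping gene at very low counts named above and its change is uncertain.

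Among the 8 members that did not pass, named because of their values, were Rps27 (log2 change 0.20, adjusted p = 0.364), Rps15 (0.26, 0.153), Rps29 (0.30, 0.271), Rpl13a (0.33, 0.0598), Rpl41 (0.37, 0.114), Rps28 (0.44, 0.0567) and Rpl38 (0.46, 0.0737). The KI_Con libraries of Rpl41 spread from 373.3 to 637.9 CPM and its KI_Half libraries from 468.2 to 832.9 CPM, so the groups overlapped. Rps29, in the same way, spread from 105.9 to 188.1 CPM in KI_Con and from 113.9 to 257.0 CPM in KI_Half.

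The counts by role stand against 68 of 76 for the whole set (median 0.48) and 20.0% of all genes higher in this comparison. No role is thereby singled out from the set. Both proteins that form the 5S particle with 5S rRNA, the particle that binds MDM2 when assembly fails, were higher in KI_Half than in KI_Con: Rpl5 by 0.50 (adjusted p = 0.00603) and Rpl11 by 0.60 (adjusted p = 0.00141). All 4 members of the stalk and its base were higher, namely Rplp0 (0.46 ± 0.10, adjusted p = 0.0053), Rplp1 (0.47, adjusted p = 0.00647), Rplp2 (0.52, adjusted p = 0.0145) and Rpl12 (0.65, adjusted p = 0.00204). All 7 members at the exit of the peptide tunnel were higher, with a median of 0.47, among them Rpl35 (0.61) and Rpl39 (0.56). Of 6 members at the entry and exit of the message channel, 5 were higher, among them Rps2, Rps3 and Rps26, with a median over the 6 of 0.47, and Rps28 was not. Rps6, the classic substrate of the S6 kinases, rose from 414.7, 376.9, 461.7 and 376.7 CPM in KI_Con to 525.6 to 690.9 CPM in KI_Half (0.55 ± 0.10, adjusted p = 0.00243). Rpsa, which is also known as a laminin receptor, rose from 706.9, 586.5, 720.6 and 626.9 to 904.4 to 1059 CPM (0.56 ± 0.09, adjusted p = 0.00148). The groups did not overlap for either gene, and the medians of the 4 roles lay between 0.47 and 0.55.

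**Figure D2:**
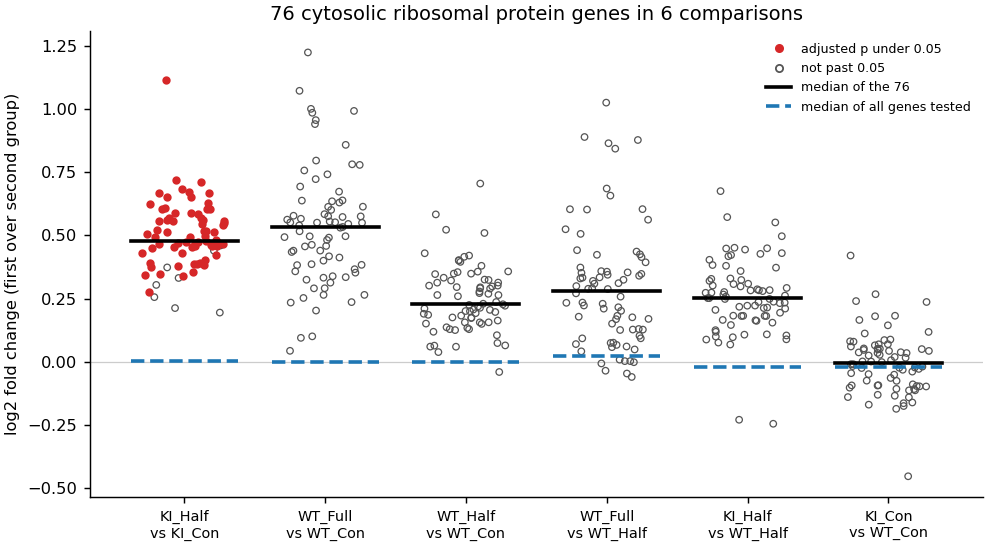
Fold changes on the log2 scale of the 76 ribosomal protein genes in each of the 6 comparisons, 1 point per gene, red where edgeR's adjusted p was under 0.05, with the median of the members as a black line and that of all genes as a blue dashed line. Red points appear only in KI_Half against KI_Con, where 68 of 76 genes passed, although the median in WT_Full against WT_Con was as high (0.53).

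At the higher ethanol dose in wild-type mice, members had fold changes as large, but none passed the test. In WT_Full against WT_Con, 0 of 76 members were called higher and 0 lower by edgeR, where 0.00592% of 16882 genes were higher. All 76 fold changes were positive, from 0.04 to 1.22 with a median of 0.53, and 41 members had an unadjusted p under 0.05, as had 3003 of all genes. Small subunit genes had a median of 0.55 and large subunit genes one of 0.52. Without overlap, 0 of 76 members were higher, against 4.22% of all genes. DESeq2 called 3 members higher (all genes 2.98%), which were Rpl13a, Rplp2 and Rps28, and 1 edgeR fit of all 25 libraries called 21 (all genes 4.02%). The authors' deposited table for this comparison gave 31 members higher and 0 lower with a median of 0.52, where 5.81% of all genes were higher. Its smallest adjusted p among members was that of Rplp2 (log2 change 0.99, adjusted p = 0.00178 in the authors' deposited table).

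The call turned on 1 library as well as on the fit. Without WT_Full replicate 4, edgeR called 54 members higher and 0 lower (all genes 7.15%), and the median rose to 0.70. Replicate 4 was the lowest WT_Full library for 73 of 76 members, and 0 of 76 members in it lay above the highest WT_Con library, against 22.6% of all genes. In replicates 1, 2 and 3 the numbers above the highest WT_Con library were 76, 64 and 73 (29.2, 29.7 and 29.2% of all genes). The labels give no difference between replicate 4 and the other WT_Full libraries. It also had the lowest summed level of crypt and cycling genes in its group (493 CPM, against up to 1132) and the highest of villus genes (48016 CPM), and the part of these in the result was not tested. Its crypt, assembly (2397 CPM) and B and plasma cell genes (740 CPM) summed to values inside the WT_Con ranges (421 to 614, 2202 to 2603 and 602 to 1211 CPM). Its T and NK cell genes, at 52.1 CPM, lay below the WT_Con range of 103 to 277 CPM.

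The members with the highest fold changes in WT_Full were Rpl13a, Rps29 and Rps28. Rps29 (ENSMUSG00000034892, chromosome 12) measured 127.6, 103.9, 92.5 and 127.4 CPM in WT_Con and 275.4, 376.6, 194.1 and 98.11 CPM in WT_Full. Its log2 change was 1.07 ± 0.35 (adjusted p = 0.201), with 3 WT_Full libraries above every control and replicate 4 inside the control range. Rps28 (ENSMUSG00000067288, chromosome 17), at the exit of the message channel, measured 121.4, 98.36, 104.8 and 126 CPM in WT_Con and 247.9, 342.5, 198.3 and 107.9 CPM in WT_Full, a log2 change of 1.00 ± 0.31 (adjusted p = 0.183). Rpl41 (ENSMUSG00000093674, chromosome 10) measured 481.5, 368.2, 393.9 and 431.4 CPM in WT_Con and 888.2, 1282, 750.4 and 377.8 CPM in WT_Full (0.98 ± 0.33, adjusted p = 0.201). In all 3 of these genes replicate 2 was the highest library. Rpl13a gave the largest fold change of the set, 1.22 ± 0.34 (adjusted p = 0.172), from 10.77, 8.544, 9.922 and 9.963 CPM to 26.3, 30.27, 25.64 and 8.703 CPM, and is uncertain because of its overlap with another gene.

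At the other end of the set were Rpl10 (0.04 ± 0.19, adjusted p = 0.917), which completes the 60S subunit late in its assembly, and Rpl5 (0.10 ± 0.21, adjusted p = 0.824). Rpl10 measured 361.3, 408.6, 558.6 and 489.5 CPM in WT_Con and 565.4, 403.1, 482.8 and 408.4 CPM in WT_Full, so that its groups lay across each other, and only replicate 1 stood above the controls. The direction of Rpl10 and Rpl5 turned when WT_Full replicate 1 was left out (-0.093 and -0.086), that of both also without WT_Con replicate 1 (-0.042 and -0.0024), and that of Rpl10 without WT_Con replicate 2 (-0.0078). Rpsa measured 605, 599.7, 747.3 and 708.6 CPM in WT_Con and 1065, 1116, 1058 and 628.5 CPM in WT_Full (0.55, adjusted p = 0.244). Rps6 (0.32, adjusted p = 0.407), Rplp0 (0.34, adjusted p = 0.408) and Rpl22 (0.56, adjusted p = 0.256), an RNA-binding protein of the 60S surface, were below Rps29, Rps28 and Rpl41. By role, median log2 changes were 0.33 for the 5S particle, 0.48 for the stalk, 0.41 for the tunnel exit and 0.41 for the message channel, with 0 called in each.

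**Figure D3:**
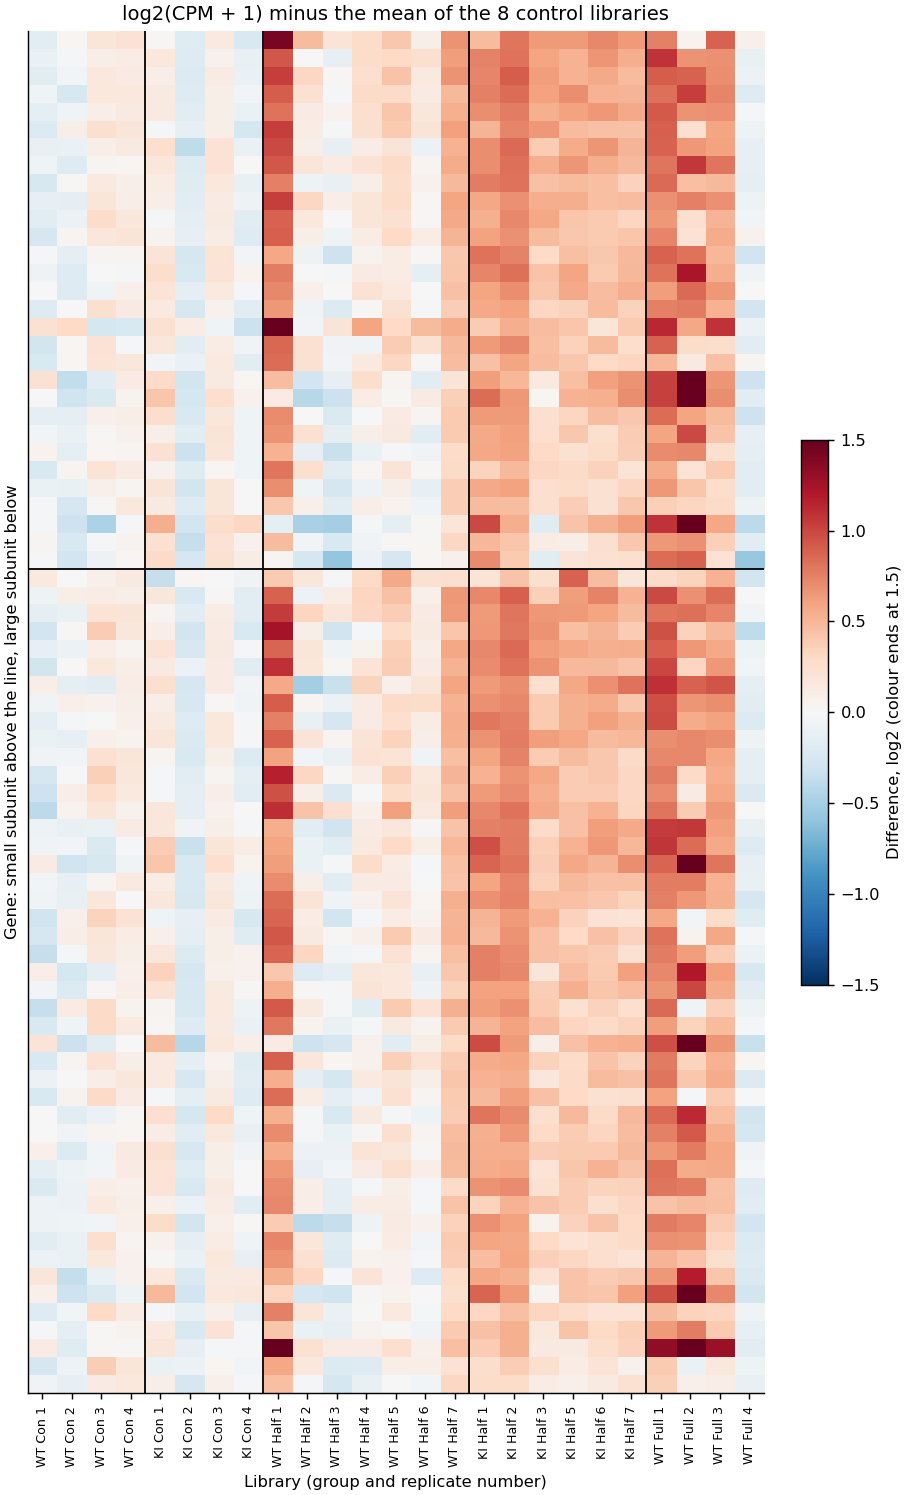
Heatmap of the 76 genes (1 line each, small subunit above the black line, large subunit below, sorted by fold change in KI_Half against KI_Con) in the 25 libraries, coloured by log2(CPM + 1) minus the mean of the 8 control libraries, with colours ending at 1.5 in either direction. The 6 KI_Half libraries are above the controls in nearly every gene, WT_Full replicates 1 to 3 likewise, and WT_Full replicate 4 is at the control level.

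At the lower ethanol dose in wild-type mice the members changed little beyond the spread of the libraries. In WT_Half against WT_Con, 0 of 76 members were called higher or lower, where 0.894% of 16993 genes were higher. The median of the members was 0.23 and 75 of 76 were positive. An unadjusted p under 0.05 was found for 6 members and for 3712 of all genes. DESeq2 called 0 members, where 4.13% of all genes were higher. The highest fold changes were those of Rps10 (0.71, adjusted p = 0.237) and Rpl13a (0.58, adjusted p = 0.294), both overlapping genes, and of Rpl29 (0.52, adjusted p = 0.149). Rpl29 measured 143.1, 193.9, 212.3 and 195.9 CPM in WT_Con and 198.2 to 403.4 CPM in WT_Half, with a median of 252.0. Among the lowest were Rps27 (-0.04, adjusted p = 0.886) and Rps29 (0.06). Rps29, which had one of the highest changes in WT_Full, ranged from 90.6 to 146.7 CPM in WT_Half and so lay across its WT_Con range of 92.5 to 127.6 CPM.

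WT_Half replicate 1 stood apart. It was the highest library of its group for 70 of 76 members, and 74 of its 76 members lay above the highest WT_Con library, against 32.6% of all genes. The corresponding numbers were 22, 3, 31, 46, 13 and 73 in replicates 2 to 7 (18.2, 20.0, 24.1, 23.3, 17.6 and 27.1% of all genes). Rps2 shows the distance: replicate 1 had 2240 CPM and the next library 1329 CPM, with WT_Con at 743.9 to 962.7 CPM. Without replicate 1 the median of the members was 0.13. In that library the crypt and cycling genes summed to 1538 CPM, the highest of all 25 libraries, against 421 to 614 CPM in WT_Con, and the part of this in the result was not tested.

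In KI_Half, by contrast with the uneven WT_Half libraries, the numbers of members above the highest KI_Con library were 76, 76, 61, 69, 71 and 75 in replicates 1, 2, 3, 5, 6 and 7 (33.6, 34.9, 36.6, 37.1, 32.2 and 26.3% of all genes). The difference between the genotypes was tested directly. In KI_Half against WT_Half, 0 of 76 members were called higher or lower by edgeR, where 0.0% of 16907 genes were higher. The median was 0.25 against -0.02 over all genes, 74 members were positive, and 32 had an unadjusted p under 0.05, as had 2398 of all genes. DESeq2 called 3 members (all genes 0.726%), Rpl38, Rps29 and Rps28, and the authors' deposited table called 0 (all genes 0.90% higher). These 3 also had the highest fold changes, 0.57 ± 0.13 for Rpl38, 0.68 ± 0.16 for Rps29 and 0.55 ± 0.14 for Rps28, each with an edgeR adjusted p of 0.266. Rps28 measured 91.1 to 155.8 CPM with a median of 131.0 in WT_Half and 124.5 to 218.6 CPM with a median of 183.9 in KI_Half, so the groups overlapped. The lowest were Rps10 (-0.24), Rpl13a (-0.23) and Rpl6 (0.07).

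The interaction of genotype and the lower ethanol dose over the 21 libraries of WT_Con, KI_Con, WT_Half and KI_Half called 0 of 17006 genes in either direction (0.0%). The members' interaction terms ran from -0.25 to 0.72 with a median of 0.24, and 74 were positive. Only 1 member, Rpl30, had an unadjusted p under 0.05 (0.45 ± 0.19, edgeR adjusted p = 0.358), as had 2162 of all genes. Passing in Aldh2KI mice and missing in wild-type mice is therefore not shown to be a difference between the genotypes.

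On control diet the genotypes differed little. In KI_Con against WT_Con, 0 of 76 members were called and 0.0% of all genes were higher. Of the members 37 were positive, and their median was -0.00. An unadjusted p under 0.05 was found in 1664 of all genes and in 1 member. That member was Rps29 (0.42 ± 0.18, adjusted p = 0.502), at 105.9 to 188.1 CPM in KI_Con and 92.5 to 127.6 CPM in WT_Con. Next were Rpl41 (0.27) and Rplp2 (0.24), and the lowest were Rpl24 (-0.45), Rpl5 (-0.19) and Rps7 (-0.17). In WT_Full against WT_Half, 0 of 76 members were called and 0.0% of all genes were higher. There 71 members were positive, the median was 0.28 against 0.02 over all genes, and 12 members had an unadjusted p under 0.05, as had 780 of all genes. The highest were again Rps29 (1.02), Rpl38 (0.89) and Rps28 (0.88), and the lowest Rps2 (-0.06), Rpl24 (-0.05) and Rpl5 (-0.03).

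Over the 5 groups, the highest mean level was found in WT_Full for 39 members and in KI_Half for 37, and in no other group (all genes 21.7 and 24.1%). The lowest mean was in WT_Con for 39 members, in KI_Con for 36 and in WT_Half for 1 (all genes 17.6% in WT_Con and 27.8% in KI_Con). Mean log2 CPM of the members was 7.70 in WT_Con, 7.71 in KI_Con, 7.92 in WT_Half, 8.19 in KI_Half and 8.17 in WT_Full. WT_Con and KI_Con did not differ beyond the spread of their libraries. KI_Half and WT_Full were not tested against each other. Their libraries ran from 8.07 to 8.37 in KI_Half and from 7.55 to 8.49 in WT_Full, where replicate 4 was the lowest and the next library had 8.26. WT_Half had a mean above WT_Con and KI_Con and below KI_Half and WT_Full, and its libraries overlapped every other group.

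Members with short messages differed from the rest in several comparisons. The length classes and r values rest on the 1 annotated transcript chosen per gene, which for Rps20 had 3706 bases. In WT_Full against WT_Con, the 17 members with a transcript under 500 bases had a median log2 change of 0.74 and the 59 longer members one of 0.46. Other genes showed the same order, with medians of 0.29 for those under 500 bases, 0.13 for those from 500 to under 1000 and -0.02 for those of 1000 bases or more. Medians for the 2 classes of members were 0.51 and 0.21 in WT_Full against WT_Half, 0.40 and 0.22 in KI_Half against WT_Half, and 0.12 and -0.02 in KI_Con against WT_Con. Other genes, from short to long, kept the order there: 0.25, 0.10 and 0.02, then 0.15, 0.05 and -0.02, then 0.11, 0.08 and -0.03. For members the order was the other way in WT_Half against WT_Con, at 0.18 and 0.26, and in KI_Half against KI_Con, at 0.45 and 0.51. In the latter 12 of 17 short and 56 of 59 longer members were called higher (all genes 20.0%). Other genes had medians of 0.11, 0.06 and -0.02 in WT_Half against WT_Con, and 0.01, 0.04 and -0.01 in KI_Half against KI_Con. Over the 76 members, Pearson r between log2 change and log10 transcript length was -0.48 in WT_Full against WT_Con and 0.11 in KI_Half against KI_Con. It was -0.51 in WT_Full against WT_Half, -0.41 in KI_Half against WT_Half, -0.52 in KI_Con against WT_Con and 0.09 in WT_Half against WT_Con. These r values are descriptions across genes that share libraries. Rps29, Rps28, Rpl38 and Rpl41 are all in the short class.

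**Figure D4:**
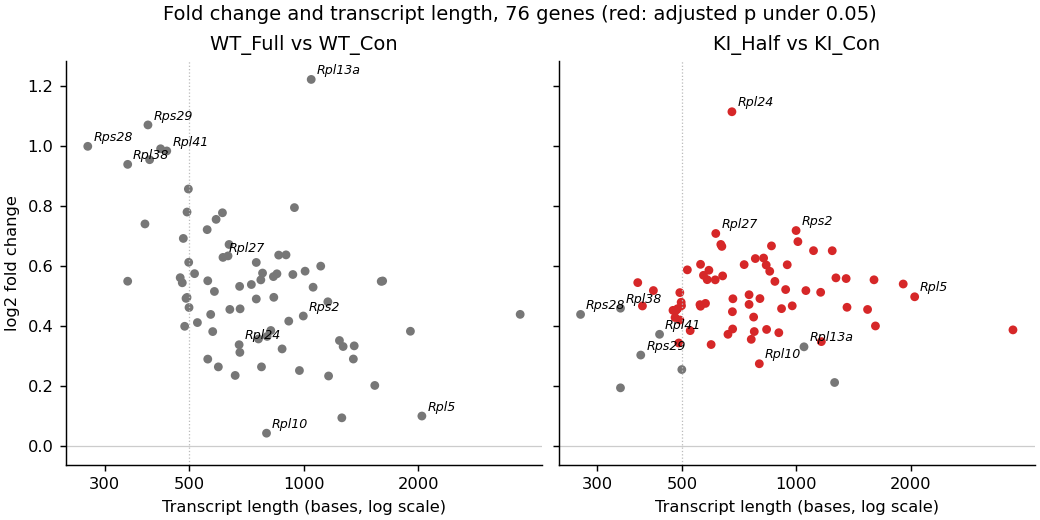
Log2 fold change of each of the 76 genes against the length of its transcript in bases (log axis), for WT_Full against WT_Con and for KI_Half against KI_Con. Short transcripts lie higher in the first comparison (r = -0.48) and not in the second (r = 0.11).

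Some members have a paralog that can replace or accompany them. Rpl22l1, the paralog of Rpl22, stood at 23.7 to 28.3% of the CPM of Rpl22 by group mean. Rpl22l1 rose from 27.9 ± 4.31 CPM in KI_Con (SD, n = 4) to 38.6 ± 2.19 in KI_Half (SD, n = 6), a log2 change of 0.47 (edgeR adjusted p = 0.0074), beside 0.45 ± 0.10 for Rpl22 (adjusted p = 0.00639). Rpl22 itself measured 127.1, 104.7, 130.9 and 108.4 CPM in KI_Con and 144.6 to 185 CPM in KI_Half. Both genes thus moved by the same amount and their ratio stayed at 23.7 and 24.2%. Rps27l, a p53-induced paralog of Rps27, stood at 68.9 to 81.7% of Rps27, and neither gene passed in this comparison (log2 changes 0.23 and 0.20). Rpl36al stood at 1.13 to 1.49% of Rpl36a.

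Other genes of the pathway were described by fixed lists. In KI_Half against KI_Con, where 20.0% of all genes were higher and 17.9% lower, 51 of 56 ribosome assembly genes were higher and 1 lower, with a median log2 change of 1.08, against 0.48 for the members. Mrto4, a 60S assembly factor, rose by 1.24, Nop16 by 1.63 and Rrp12, a factor of subunit maturation and export, by 1.75. The 1 gene that fell was Sbds (-0.40, adjusted p = 0.0093), which acts at the last step of 60S maturation. All 7 host genes of small nucleolar RNAs, many of whose spliced transcripts begin with a TOP motif, were higher (median 0.99), with Snhg1 at 1.35, Snhg5 at 1.70 and Zfas1 at 0.74. Of 19 further genes with TOP messages, for translation factors and other proteins, 12 were higher and 0 lower (median 0.41). Among these were Npm1 (1.08) and Nap1l1 (1.00), which are not translation factors, and the elongation factor subunit Eef1g (0.62). Of 11 other ribosome-related genes that the symbol rule leaves out, not all of them for proteins of the finished ribosome, 6 were higher and 0 lower (median 0.43). Rps3a1 (0.56 ± 0.10) was among them, at 534 ± 57.0 CPM in KI_Con (SD, n = 4) and 782 ± 64.0 CPM in KI_Half (SD, n = 6). So were Rpl7l1 (0.69) and Rsl24d1 (1.02). Mitochondrial ribosomal proteins were higher in 47 of 77 cases and lower in 0 (median 0.40), and ribosomal protein pseudogenes in 27 of 65 and 0 (median 0.52).

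A list of 16 genes for mTORC1 and TOP control also holds the transcription factor genes Myc and Max. Of these 16 genes, 8 were higher and 3 lower in KI_Half than in KI_Con, with a median of 0.29, where 20.0% of all genes were higher and 17.9% lower. The share that was lower was close to that of all genes. Eif4ebp1, the translational repressor 4E-BP1, rose from 21.5 ± 3.34 (SD, n = 4) to 128 ± 36.9 CPM (SD, n = 6), a log2 change of 2.58. Ddit4, an inhibitor of mTORC1, rose by 2.21, and Larp1, which binds the TOP motif, by 0.59 from 178 ± 8.15 (SD, n = 4) to 267 ± 22.8 CPM (SD, n = 6). Max, the partner of MYC, fell by 0.76, Rptor, which defines mTORC1, fell by 0.39, and Tsc2, which restrains it, fell by 0.29. In WT_Half against WT_Con, 1 of the assembly genes, Nop16 (1.00, adjusted p = 0.0461), and 1 of the control genes, Eif4ebp1 (1.37, adjusted p = 0.0218), were higher, where 0.894% of all genes were. So were 4 of 77 mitochondrial ribosomal proteins, Mrps6 (1.85), Mrpl20 (0.70), Mrpl55 (0.49) and Mrps25 (0.68). In WT_Full against WT_Con none of these lists had a gene called by edgeR. The medians were 0.78 for the assembly genes and 1.05 for the snoRNA hosts. They were 0.39 for the translation factors and other proteins with TOP messages, and 0.52 for the mitochondrial ribosomal proteins.

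Mean log2 CPM of the 56 assembly genes was 4.71 in WT_Con, 4.56 in KI_Con, 5.25 in WT_Half, 5.51 in KI_Half and 5.33 in WT_Full. From WT_Con to WT_Half the assembly genes thus differed by more than the members, whose means were 7.70 and 7.92. Summed over the 56 genes, all 7 WT_Half libraries (2635 to 6291 CPM) lay above the 4 WT_Con libraries (2202 to 2603 CPM), whereas the share of the members overlapped between the same groups. By mean log2 CPM the assembly genes overlapped too, WT_Half replicate 2 (4.77) lying below WT_Con replicates 3 and 4 (4.89 and 4.78).

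**Figure D5:**
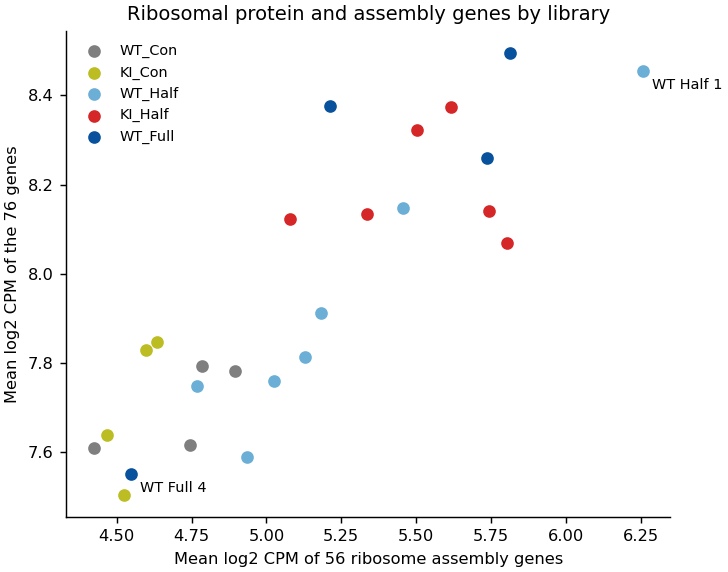
Mean log2 CPM of the 76 ribosomal protein genes against mean log2 CPM of the 56 ribosome assembly genes, 1 point per library and 1 colour per group. The 8 control libraries lie at the lower left, WT_Half replicate 1 is farthest to the right, and WT_Full replicate 4 lies among the controls.

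Markers of cell types moved in the same comparison as the members. In KI_Half against KI_Con, 6 of 10 crypt and cycling genes were higher and 1, Lgr5 (-0.98), was lower, with a median of 0.66. Their summed level was 363 to 515 CPM in KI_Con and 562 to 722 CPM in KI_Half. Of 10 villus enterocyte genes 6 were lower and 0 higher (median -0.55), and they summed to 32216 to 46696 CPM in KI_Con and 16535 to 34576 in KI_Half. T and NK cell genes were lower in 9 of 10 cases (median -1.82), and 3 of 4 B and plasma cell genes tested were lower. All 10 acinar genes were lower (median -7.53), which rests on KI_Con replicates 1 and 2. Smooth muscle genes (0 of 6 called, median -0.02) and Brunner gland genes (0 of 3 called, median -0.83) did not pass. The part of the crypt, villus and lymphocyte markers in the members' change was not tested.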

How the data were processed

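Mouse duodenum polyA RNA was measured in 25 libraries of 5 groups. The authors deposited whole-number read counts per gene, with normalized counts (signal), and the log2 fold changes and adjusted p-values of their own comparisons, per the file headers. Reads were processed with FastQC, Trimmomatic, HISAT2, SAMtools, featureCounts, DESeq2 on build GRCm38, per the submitters' processing notes. These sources do not give versions, strand setting, annotation release or how reads with several matches were handled (not given in the sources used here). Counts were identical between the deposited tables. Each had 17220 lines, and 213 repeat lines were merged to 17007 gene identifiers, all 25 libraries being used. Positions are from GENCODE's annotation of GRCm38 and start sequences from RefSeq.

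Each comparison was fitted to its own 2 groups with edgeR 4.0.16 in R 4.3.3 (filterByExpr, TMM, glmQLFit, glmQLFTest, adjusted p under 0.05 over all genes tested). Standard errors were derived from the quasi-likelihood F statistic. The steps were tested on simulated data. Alternatives were DESeq2 1.42.0, other size factors, no filter, TMM without the members, 1 fit of all libraries, a Brunner gland covariate, a replicate block and leaving out each library. The interaction and leaving out KI_Con replicates 1 and 2 were added after seeing the data. The members and lists were chosen with earlier results of these data known. Named genes followed a rule: the members past the threshold if at most 10, otherwise the 5 with the smallest p, the 3 highest and 3 lowest fold changes, levels per kilobase and spreads, Rps6, Rpl22, Rplp0, Rpsa and Rpl41, members by role, up to 5 called genes of each other list or, in each direction, the 3 of smallest p, 3 paralogs, and the 10 genes most alike. Rpl35 and Rpl39, the members overlapping other genes and those named for not passing were chosen after their values were seen. Some members that the rule names are not reported here.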

Additional observations from a re-analysis of the deposited data

Results flagged for a closer look

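In the group-wise search for a library far from the others, 32 quantities in 5 groups gave 160 groups and 9 were marked. Chance alone marks about 1 group in 20, and quantities that move together are marked together. WT_Half replicate 1 was the highest of its group, far from the next library, for the summed level of the assembly genes (6291 CPM), Rpl13a (33.0 CPM, next 13.7), Rpl6 (767 CPM, next 484), Rps10 (15.6 CPM, next 7.18) and Rps2 (2240 CPM). WT_Full replicate 4 was the lowest of its group for Rpl14 (229.7 CPM, next 394) and Rpsa (628 CPM). KI_Half replicate 5 had the highest Rpl24 of its group (2.06 CPM, next 1.28), and WT_Con replicate 1 the lowest Rpl27 (267 CPM, next 298).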

How the results depend on the processing

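In KI_Half against KI_Con all 76 members stayed positive under every alternative run. Members called there were 54 to 71 when each library was left out in turn (54 without KI_Con replicate 2, all genes 15.7% higher, and 71 without KI_Half replicate 3, all genes 17.9%), 70 with DESeq2 (21.6%), and 33 without both KI_Con libraries with pancreatic transcripts. In WT_Full against WT_Con, 0 members became 3 with DESeq2, 21 in 1 fit of all 25 libraries and 0 to 54 when each library was left out (54 without WT_Full replicate 4). With the Brunner gland covariate 0 were called there and the median went from 0.53 to 0.70. Members with an unadjusted p under 0.05 went from 41 to 59, and all genes from 3003 to 2688. With this covariate the median was 0.21 in WT_Half against WT_Con (0 called) and 0.48 in KI_Half against KI_Con (66 called, all genes 18.3%). In KI_Half against WT_Half, 0 became 3 with DESeq2. Apart from the libraries left out, the cause was not tested. When each library was left out, log2 changes in WT_Full against WT_Con ran from -0.093 to 0.15 for Rpl10 and from -0.086 to 0.22 for Rpl5.

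In no comparison did every pair of libraries with the same replicate number correlate above 0.1, so the numbers were taken as names. In KI_Half against KI_Con these pairs ran from 0.039 to 0.25 and pairs with other numbers from -0.26 to 0.18. In KI_Con against WT_Con the ranges were 0.021 to 0.27 and -0.32 to 0.32. With so few pairs this check cannot exclude a pairing. With the replicate block, 49 members were called in KI_Half against KI_Con (all genes 18.6% higher) and 0 in every other comparison. The block kept only libraries whose replicate number occurred in both groups. That left 3 pairs in KI_Half against KI_Con and 4 pairs in WT_Half against WT_Con. Effects of the block and of fewer libraries cannot be told apart there.

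Genes called over the whole table went from 1 to 936 (DESeq2), 1289 (1 fit of all libraries) and 0 to 2069 (each library left out) in WT_Full against WT_Con. In WT_Half against WT_Con they went from 249 to 1353, 720, and 21 to 446 on leaving out. There 0 genes were called with the replicate block, which used fewer libraries, and 7 with the Brunner gland covariate. In KI_Half against KI_Con without both pancreatic libraries, genes called went from 6420 to 2565. DESeq2 called 20 genes in WT_Full against WT_Half, 172 in KI_Half against WT_Half and 8 in KI_Con against WT_Con, where edgeR called 0. Overlapping genes (Rpl24, Rps10 and Rpl13a) have few counts and limit what can be said of them.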
